A study of Gallus gallus with 60 samples.

Results

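The kidney of the Tibetan chicken at 300 days of age (D300) was compared with 4 other non-muscle tissues of the same age, by small RNA sequencing of microRNAs (miRNAs). The kidney samples were the 3 columns labelled Kidney among the 15 samples of a table of 5 tissues, and the remaining 12 columns held 3 samples each of liver, brain, ovary and spleen. All 15 came from the Tibetan chicken strain, with no treatment named in the labels. They are a part of a series of 60 samples, whose other samples are early whole embryos and stages of pectoral muscle. Of 707 miRNA rows listed, 668 were above 0 in at least 1 of the 15 samples and were tested, 546 of them known chicken miRNAs and 122 predicted by the authors. The samples were tissues taken in triplicate, and the part of each organ taken was not given in the sources used here. Neither the sex of the bird behind each sample, apart from ovary, nor whether same-numbered samples came from the same bird was given either. The p-values therefore measure only the spread between these samples. In whole tissue, fewer cells of a type and less RNA per cell cannot be told apart.

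A miRNA is a short RNA cut from a hairpin precursor, whose 5p and 3p arms can each be loaded into a silencing complex that lowers the output of matching messenger RNAs. The kidney is an organ of epithelial tubules that arises from the intermediate mesoderm. In vertebrates the miR-10 and miR-196 genes lie inside the Hox clusters, which pattern the body axis, and the miR-200 family marks epithelial cells through repression of the ZEB factors. In mammals, miR-192, miR-194, miR-204 and the miR-30 family are further miRNAs known from kidney epithelium.

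Values are given in TPM as the authors call them, that is reads of a miRNA per 1000000 reads of its library, with no correction for length. The library totals recovered from the values were 11067549, 12695846 and 11015622 reads in Kidney 1, 2 and 3, within the range of 10734898 to 13060558 reads of the 12 other samples. Kidney 1 stood apart. Its listed miRNAs summed to 410664 TPM, against 788209 and 847464 TPM in Kidney 2 and 3 and 728171 to 916277 TPM in the 12 other samples, so that the listed miRNAs were 41.1% of its library total. The main results that changed without it are given with that value.

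A second feature of scale touches every comparison. Differences are given as log2(TPM + 1) in kidney minus that in the other tissues, and the median difference from the mean of the 4 tissues was -1.29 over the 249 miRNAs that reached a mean of 10 TPM in at least 1 tissue. It was -0.37 once each sample was centred on its median miRNA, -0.45 and -0.28 by edgeR with TMM factors and by DESeq2 on recovered reads, and -0.59 with the listed miRNAs other than miR-10b-5p scaled to 1000000. A miRNA was called where the limma p, adjusted over 668 miRNAs by the Benjamini-Hochberg method, was at most 0.05 and the difference was at least 1 in size (2-fold). By this rule 23 miRNAs (3.44%) were called higher and 164 (24.6%) lower in kidney than the mean of the 4 tissues. Higher calls were 12.3% of all calls, against 52.4% after centring, 52.3% by edgeR with TMM, 52.5% by DESeq2 and 34.4% with miR-10b-5p left out of the scaling. Of the 23 higher calls, 21 were also made under each of these 4 other scalings, but only 32 of the 164 lower calls were. The names below leave out the prefix gga.

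Few miRNAs made up most of the listed sum in kidney. The 10 highest miRNAs held 81.9 ± 4.54% of the listed sum in kidney, against 68.2 ± 1.42% in liver, 71.0 ± 1.74% in brain, 75.3 ± 1.26% in ovary and 68.6 ± 2.87% in spleen (SD, n = 3 each, exact two-sided permutation p = 0.1 for each tissue, the smallest that 3 against 3 allows, adjusted p = 0.114 over 24 such comparisons). The number of miRNAs with a value above 0 was 325 ± 7.77 in kidney, 372 ± 10.6 in liver, 473 ± 28.1 in brain, 379.7 ± 20.3 in ovary and 353 ± 5.77 in spleen, and all 3 kidney samples had fewer than any other sample (exact p = 0.1 for each). The 10 highest in kidney were miR-10b-5p, miR-26a-5p, miR-10a-5p, miR-30d, miR-22-3p, the predicted new-gga-miRNA-0001, miR-30a-5p, miR-181a-5p, miR-30e-5p and miR-148a-3p. Among them, miR-26a-5p averaged 106370.0 ± 44053 TPM in kidney and 114070.0 to 166045 TPM in the other tissues, and its difference from their mean was not called (-0.45, adjusted p = 0.0968 by limma). miR-148a-3p, abundant in vertebrate liver, averaged 16243 ± 3956 TPM in kidney and 149805 ± 24064 TPM in liver (SD, n = 3 each).

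**Figure D1:**
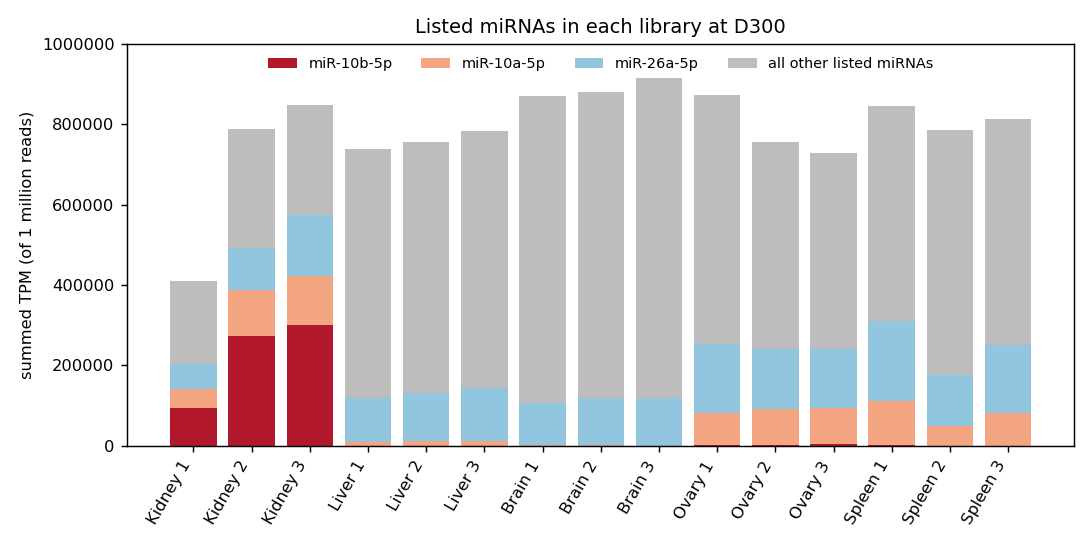
Summed TPM of the listed miRNAs in each of the 15 libraries, divided into miR-10b-5p, miR-10a-5p, miR-26a-5p and all others. The y axis is in reads per 1000000 reads of the library. miR-10b-5p and miR-10a-5p together are 34.2% to 50.0% of the listed sum in the 3 kidney libraries and at most 13.0% in any other library, and the bar of Kidney 1 is the lowest.

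The 3 largest differences from the mean of the 4 tissues were those of miR-10b-5p, miR-196-5p and miR-196-1-3p, all miRNAs of the Hox clusters. miR-10b-5p, the main product of the miR-10b hairpin, stood at 92752, 272211 and 299477 TPM in Kidney 1, 2 and 3, and the lowest, median and highest of the 12 other samples were 47.3, 446 and 4303 TPM. It made up 22.6%, 34.5% and 35.3% of the listed sum of the 3 kidney libraries and at most 0.591% of any other. Its lowest kidney sample, Kidney 1, was still far above the highest of the others, an ovary. The difference was 8.59 ± 0.69 from the mean of the 4 tissues (SE, adjusted p = 1.51e-06 by limma) and 6.11 ± 0.87 from ovary, the nearest tissue. Without Kidney 1 the difference from ovary was 6.65.

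The opposite arm followed the same pattern at a far lower level. miR-10b-3p had 42.9, 99.2 and 75.2 TPM in kidney, against a highest value of 2.06 TPM and a median of 0.232 TPM in the 12 other samples. No sample of another tissue came near the kidney values, and the difference from the nearest tissue, ovary, was 5.01 (adjusted p = 3.68e-07 by limma). The 3p arm was 0.0251% to 0.0463% of both arms in kidney and 0% to 0.0952% in the other samples, which overlapped. The highest of these, in Liver 1, rested on 1 read (0.0905 TPM). In liver, brain and spleen miR-10b-3p had at most 0.434 TPM, near the 3 reads taken as detectable (0.23 to 0.279 TPM). Their arm balance is therefore imprecise. In the RefSeq annotation (GRCg7b) the miR-10b gene lies within HOXD3, with HOXD4 on one side and HOXD8 on the other. Pectoral muscle of the same age, from a table that the authors normalized separately, held miR-10b-5p at 5983 ± 2148 TPM (SD, n = 3).

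miR-10a-5p, which in RefSeq lies within HOXB3, was abundant in 3 of the tissues. It had 47528, 114583 and 124055 TPM in kidney, 77808, 90449.7 and 89119.7 TPM in ovary and 109518, 48111 and 81085 TPM in spleen, against 8968 to 10782 TPM in liver and 93.2 to 246 TPM in brain. Kidney overlapped with ovary and spleen and lay above liver and brain. Its difference was 3.09 ± 0.34 from the mean of the 4 tissues (adjusted p = 1.31e-05) but 0.04 ± 0.43 from ovary and 0.22 ± 0.43 from spleen. Its 3p arm had 183, 235 and 203 TPM in kidney, below ovary (395 ± 127.7 TPM) and spleen (349.8 ± 43.8 TPM) and above liver (56.5 ± 3.72 TPM) and brain (1.11 ± 0.779 TPM, SD, n = 3 each).

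miR-196, whose genes lie beside HOXB8, HOXC9 and within HOXA9, was the other Hox miRNA of the kidney. miR-196-5p had 1042, 962 and 909 TPM in kidney, and ovary was next with 154.8, 190.4 and 327 TPM. Liver, brain and spleen held it at 0.743 to 3.997 TPM, so the tissues fell into kidney, ovary and the rest with no overlap. The difference was 2.18 ± 0.36 from ovary (adjusted p = 0.00357 for the nearest tissue) and 7.99 to 8.35 from the other 3. The 3p arm of the hairpin next to HOXB8, miR-196-1-3p, had 112, 133.1 and 109 TPM in kidney, 8.60, 6.81 and 11.01 TPM in ovary and at most 0.544 TPM in the others, and its difference from ovary was 3.62 (adjusted p = 3.68e-07). The 3p arm of a second hairpin, miR-196-2-3p, was at 0.271, 0.158 and 0.182 TPM in kidney, each at or below the 3 reads taken as detectable (0.236 to 0.272 TPM in these libraries). Of the 7 miR-10 and miR-196 rows, 6 were called higher than the mean of the 4 tissues and none lower, beside 3.44% and 24.6% of all miRNAs. Their median difference among the 6 rows from 10 TPM was 5.80, beside -1.29 over all such miRNAs.

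The miR-200 family was the second group. RefSeq places the genes of miR-200b, miR-429 and miR-200a, the last under the symbol MIR141, within 10 kb of each other inside TTLL10. miR-200b-3p had 1626, 2495 and 1555 TPM in kidney, against 202, 174 and 177 TPM in liver and 127, 136 and 111 TPM in ovary. Brain and spleen held it at 2.11 to 17.6 TPM, and no sample reached the kidney values. The difference from liver, the nearest tissue, was 3.32 ± 0.52 (adjusted p = 0.00273 by limma).

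miR-200a-3p had 2984, 3137 and 1234 TPM in kidney, with liver next at 458, 442 and 308 TPM, ovary at 136.9 to 204 TPM, brain at 13.2 to 50.6 TPM and spleen at 4.15 to 12.3 TPM. Kidney 3 was the lowest of the kidney samples and Kidney 1 was not, unlike the order for miR-10b-5p. The difference from liver was 2.51 ± 0.51 (adjusted p = 0.0132), and without Kidney 1 it was 2.31 with an adjusted p of 0.0544, so this call was lost, while it was kept without Kidney 2 (2.27, adjusted p = 0.0392) and without Kidney 3 (2.94, adjusted p = 0.00957). miR-429-3p had 1157, 2134 and 1163 TPM in kidney and 749.8, 727 and 558 TPM in liver, with no overlap, but its difference from liver, 1.08 ± 0.61, did not pass (adjusted p = 0.678).

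The 5p arms of these hairpins were far less abundant. miR-200b-5p had 25.1, 51.3 and 46.0 TPM in kidney and at most 8.00 TPM in another sample, with a nearest difference of 2.80 (adjusted p = 0.000165). miR-200a-5p had 48.3, 54.0 and 41.5 TPM in kidney and at most 12.7 TPM in another sample, with a nearest difference of 2.02 (adjusted p = 0.0165, and 0.0544 without Kidney 1). miR-429-5p had 1.97 to 3.07 TPM in kidney and 1.72 to 3.45 TPM in liver. The 3p strand was 96.7% to 98.4% of both strands of miR-200a and 97.1% to 98.5% of those of miR-200b in kidney. Summed, the family was at 4041 to 7873 TPM in kidney, 1058 to 1429 TPM in liver, 389 to 525 TPM in ovary, 25.3 to 111 TPM in brain and 8.84 to 41.4 TPM in spleen. All 6 rows of the family were called higher in kidney than the mean of the 4 tissues (3.44% of all), and all 6 were called under each other scaling. Without Kidney 1 the number was 5.

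miR-460a-5p, a miRNA of birds and other non-mammalian vertebrates whose gene lies within PTH2R in RefSeq, was the ninth miRNA above every other tissue. It had 3538, 4606 and 4302 TPM in kidney, 2228, 2098 and 1675 TPM in liver, 676 to 813 TPM in ovary, 183 to 193 TPM in brain and 93.6 to 123 TPM in spleen. The tissues kept this order with no overlap between any neighbours. The difference from liver was 1.05 ± 0.14 (adjusted p = 0.000738), just over the 2-fold limit, and it was 0.97 without Kidney 2. With kidney and liver samples paired by number it did not pass against liver (adjusted p = 0.0958). miR-460a-3p had 102, 168 and 134 TPM in kidney and 60.6 to 111 TPM in liver, which overlapped. Counted together, 9 of 668 miRNAs (1.35%) were called above every other tissue, that is with the largest of the 4 p-values passing after adjustment and the smallest of the 4 differences at least 1. All 9 were also called after centring, with miR-10b-5p left out of the scaling and by DESeq2, and 8 by edgeR with TMM, which did not call miR-200a-5p. Without Kidney 1, 7 of the 9 were called.

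**Figure D2:**
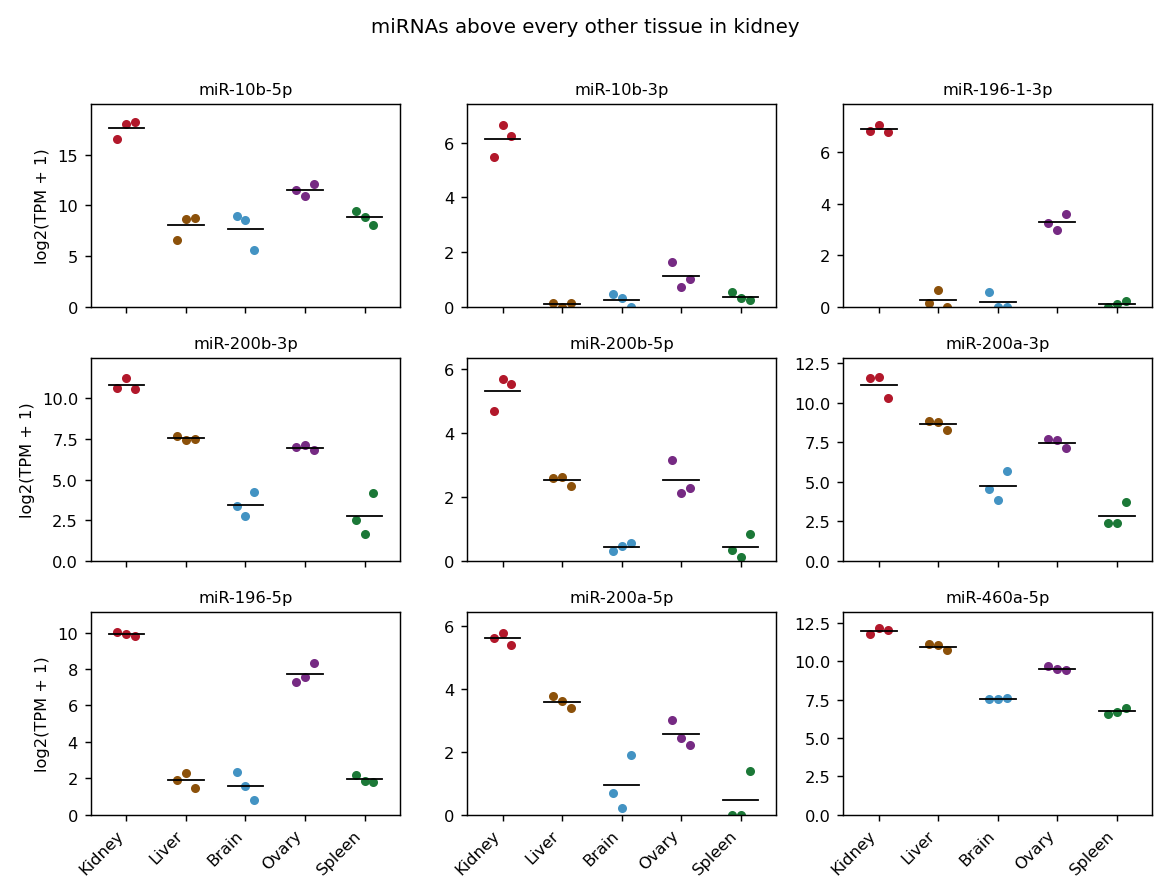
log2(TPM + 1) of the 9 miRNAs called above every other tissue in kidney, per sample (points, 3 per tissue) with the tissue mean (line). All 3 kidney points lie above all 12 others in every panel, and ovary or liver is the next tissue. Under other scalings 8 or 9 of the 9 were called.

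In 14 miRNAs (2.1% of 668) all 3 kidney samples lay above all 12 others. Besides the 9 and miR-429-3p these were miR-30a-5p, miR-30c-5p and both arms of miR-1329. miR-1329-5p had 119, 136.8 and 88.6 TPM in kidney, 58.8 to 71.3 TPM in ovary, 27.0 to 49.1 TPM in brain and at most 22.1 TPM in spleen and liver, and its difference was 2.22 ± 0.33 from the mean of the 4 tissues (adjusted p = 0.000127) and 0.80 ± 0.42 from ovary, which did not pass. miR-1329-3p averaged 8.67 TPM in kidney, and its nearest difference of 0.96 was just under 2-fold. Under each of the 4 other scalings it was called above every other tissue, as were miR-30a-5p, miR-30b-5p and miR-460a-3p. A few miRNAs passed against the mean of the 4 tissues although another tissue held more. miR-31-5p had 121, 266 and 121 TPM in kidney and 1553, 2011 and 2324 TPM in ovary. The predicted new-gga-miRNA-0005 had 1301, 2585 and 2717 TPM in kidney and 5565, 7928 and 6983 TPM in ovary, against at most 94.6 TPM in liver, brain and spleen. Kidney and ovary were thus the 2 high tissues for miR-196-5p, new-gga-miRNA-0005 and miR-31-5p, and ovary lay above kidney in the last 2.

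**Figure D3:**
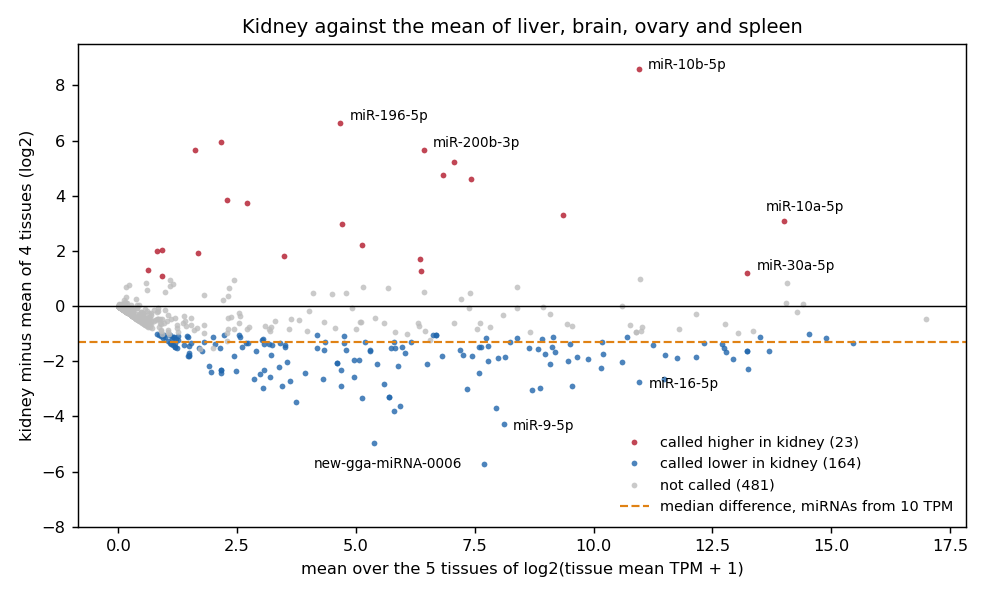
Difference of kidney from the mean of liver, brain, ovary and spleen (y axis, log2) against the mean level over the 5 tissues (x axis, log2 scale), 1 point for each of 668 miRNAs under the deposited scaling. Of them 23 are called higher, 164 lower and 481 not called. The dashed line is the median difference of miRNAs from 10 TPM, -1.29, which lies between -1.45 and -0.28 under the other scalings, and 32 of the 164 lower calls hold under all 4 scalings compared.

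The miR-30 family, abundant in kidney epithelium of mammals, depended on the scaling. miR-30a-5p had 14966, 22115 and 19849.7 TPM in kidney, against 6043, 7809 and 10826 TPM as the lowest, median and highest of the 12 other samples. Its difference of 1.21 ± 0.14 from the mean of the 4 tissues was called (adjusted p = 1.59e-05), while 0.95 from liver was just under 2-fold. Without Kidney 1 the difference from liver was 1.11 (adjusted p = 0.0027) and the miRNA was called above every other tissue. miR-30c-5p had 3859, 3322 and 3063 TPM in kidney and 1142 to 2496 TPM elsewhere, with a difference of 0.99 ± 0.22 that was also just under the limit. miR-30d had 21035, 31029 and 31721 TPM in kidney and overlapped with brain at 24872 to 32165 TPM, above liver, ovary and spleen at 9346 to 17522 TPM.

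The arms of miR-30 did not all differ in the same direction. miR-30a-3p and miR-30c-2-3p averaged 220 and 114 TPM in kidney. Their differences of 0.49 and 0.50 were under 2-fold, and both were called higher under the 4 other scalings. The single miR-30c-5p row cannot be assigned to the miR-30c-1 or the miR-30c-2 hairpin. miR-30c-1-3p had 74.4, 58.3 and 48.2 TPM in kidney and 118 to 271 TPM elsewhere, and was called lower (-1.57 ± 0.19, adjusted p = 2.88e-05), a call that no scaling other than that to library or listed totals made. miR-30e-3p had 257, 235 and 222 TPM in kidney and 318 to 641 TPM elsewhere, a difference of -0.94 that was under 2-fold. Of the 10 rows of the family, 1 was called higher and 1 lower under the deposited scaling (3.44% and 24.6% of all), and 6 higher and none lower after centring, with miR-10b-5p left out of the scaling, by edgeR with TMM and by DESeq2, settings that called 44 to 56 of all 668 miRNAs higher.

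Other miRNAs known from the mammalian kidney were not high. miR-215-5p, of the miR-192 family, had 7.77, 23.4 and 31.5 TPM in kidney and overlapped with all 4 tissues, whose samples ran over 11.2 to 68.5 TPM with liver the highest. Neither it nor the other 2 rows for miR-194 and miR-215, which were under 10 TPM in every tissue mean, was called against the mean of the 4 tissues, although 1 of the 3 was called lower against liver alone, and 1 against the mean without Kidney 3. miR-192 had no row among the 668 tested. miR-204, which carries the same values as miR-211 in all 15 samples so that the reads of these near-identical miRNAs cannot be told apart, had 6.23, 9.37 and 6.08 TPM in kidney. Liver was as low with 3.90 to 7.08 TPM, while brain, ovary and spleen held 60.02 to 402 TPM. The difference of -3.28 ± 0.28 from the mean of the 4 tissues (adjusted p = 2.51e-06) was called lower under every scaling. The whole list of 25 kidney-related rows was chosen from mammalian knowledge, with earlier results of these data known. Of these rows 11 were called higher and 3 lower (3.44% and 24.6% of all). Under each of the 4 other scalings 16 were higher and 2 lower, beside 44 to 56 higher and 48 to 84 lower of all miRNAs. All but 1 of the 11 were miR-10 or miR-200 rows, and 2 of the 3 lower rows were miR-204 and miR-211, which share their values.

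Against every other tissue, 22 of 668 miRNAs (3.29%) were called lower in kidney, and in 63 (9.43%) all 3 kidney samples lay below all 12 others. miR-16-5p and miR-15a, known in mammals to restrain the cell cycle, led among the abundant ones. RefSeq places 1 miR-16 gene beside miR-15a and another beside miR-15b, and the single miR-16-5p row cannot be assigned to either. miR-16-5p had 384, 509.6 and 400.2 TPM in kidney, against 1738, 3105 and 4937 TPM as the lowest, median and highest of the 12 other samples, with brain the nearest. The difference was -2.77 ± 0.11 from the mean of the 4 tissues (adjusted p = 2.55e-09), which is 1.48 below the median difference of all miRNAs from 10 TPM. From brain it was -2.03, and it was -1.001 after centring, -1.04 with miR-10b-5p left out of the scaling, -0.98 by edgeR with TMM and -0.69 by DESeq2, the last 2 under 2-fold.

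miR-15a had 236, 420.4 and 320.3 TPM in kidney, and 851, 1592 and 2549 TPM were the lowest, median and highest of the others. Its nearest difference was -1.79 (adjusted p = 0.00133) and -0.76 after centring. The related miR-15b-5p and miR-16c-5p, which were named after their values were seen, differed from this pattern. miR-15b-5p had 30.4, 76.4 and 89.9 TPM in kidney and overlapped with brain at 56.3 to 91.9 TPM. miR-16c-5p had 200.5, 280.2 and 201 TPM in kidney, above brain at 81.5 to 119 TPM and below spleen at 649.7 to 727 TPM.

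miR-222b-3p, of the miR-221 and miR-222 family, had 4.61, 5.75 and 5.90 TPM in kidney, 10.9 to 29.4 TPM in ovary, 19.7 to 54.8 TPM in liver, 162 to 255 TPM in brain and 295 to 865 TPM in spleen. Its difference from the mean of the 4 tissues was -3.79 ± 0.38 and was called lower under every scaling, but its nearest difference of -1.77 was close to the limit (adjusted p = 0.0484, and 0.153 without Kidney 1). miR-138-5p, a neuronal miRNA, had 2.53, 5.59 and 5.99 TPM in kidney, 9.80 to 18.5 TPM in liver and spleen, 52.2 to 58.3 TPM in ovary and 693 to 739 TPM in brain, and its nearest difference of -1.22 was -0.91, under 2-fold, without Kidney 1. The predicted new-gga-miRNA-0012 had 10.8 TPM in Kidney 1 and was listed at 0 in Kidney 2 and 3, against 36.8 to 136 TPM in the other samples. new-gga-miRNA-0007 had 22.7, 42.1 and 29.3 TPM in kidney and 3779, 6488 and 6659 TPM in brain, and new-gga-miRNA-0008 had 69.8, 80.7 and 78.6 TPM in kidney and 3249.8, 4112 and 3054 TPM in brain.

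The rest of the 12 were miR-146c-5p, miR-456-3p, let-7g-5p, let-7i and miR-2954. miR-146c-5p had 2190.0, 3888 and 2389 TPM in kidney and 5579.6, 8675 and 16683 TPM as the lowest, median and highest of the others. let-7g-5p had 969, 1219.8 and 1053 TPM in kidney and 2224, 4110.4 and 5318 TPM in the others, and let-7i had 1097, 1280.0 and 1209.7 TPM in kidney and 2181, 4556 and 10068 TPM in the others. The nearest differences of these 3 were -1.32, -1.22 and -1.18, and none of the 3 was called after centring. Without Kidney 1, let-7g-5p was still called (-1.14), while miR-146c-5p and let-7i missed the threshold (adjusted p = 0.0693 and 0.0561 by limma). miR-456-3p had 248, 265 and 178 TPM in kidney and 304 to 3251 TPM in the others. miR-2954, a Z-linked miRNA of birds that is known for higher levels in males, had 33.7, 74.9 and 65.7 TPM in kidney and 111 to 398 TPM in the others, with Kidney 1 the lowest. Without Kidney 1 neither was called, with nearest differences of -1.36 for miR-456-3p and -0.86 for miR-2954 (adjusted p = 0.087 for each). The other 10 of the 22 had nearest differences of -1.07 to -1.48, among them miR-17-5p, miR-18a-5p, miR-92-5p, miR-20a-3p and miR-106-3p of the miR-17-92 cluster and its paralogue. The 22 calls were the least stable of the report. After centring, 3 miRNAs were called below every tissue, 2 of them among the 22. With the listed miRNAs scaled to 1000000 there were 8 such calls, 7 of them among the 22. With miR-10b-5p left out 1 call was made, also among the 22. Without Kidney 1 there were 12, of which 9 were among the 22, and without Kidney 3 there were 13, all among them. By edgeR with TMM and by DESeq2 there were 0, and 5 and 4 passed at an unadjusted p of 0.05.

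**Figure D4:**
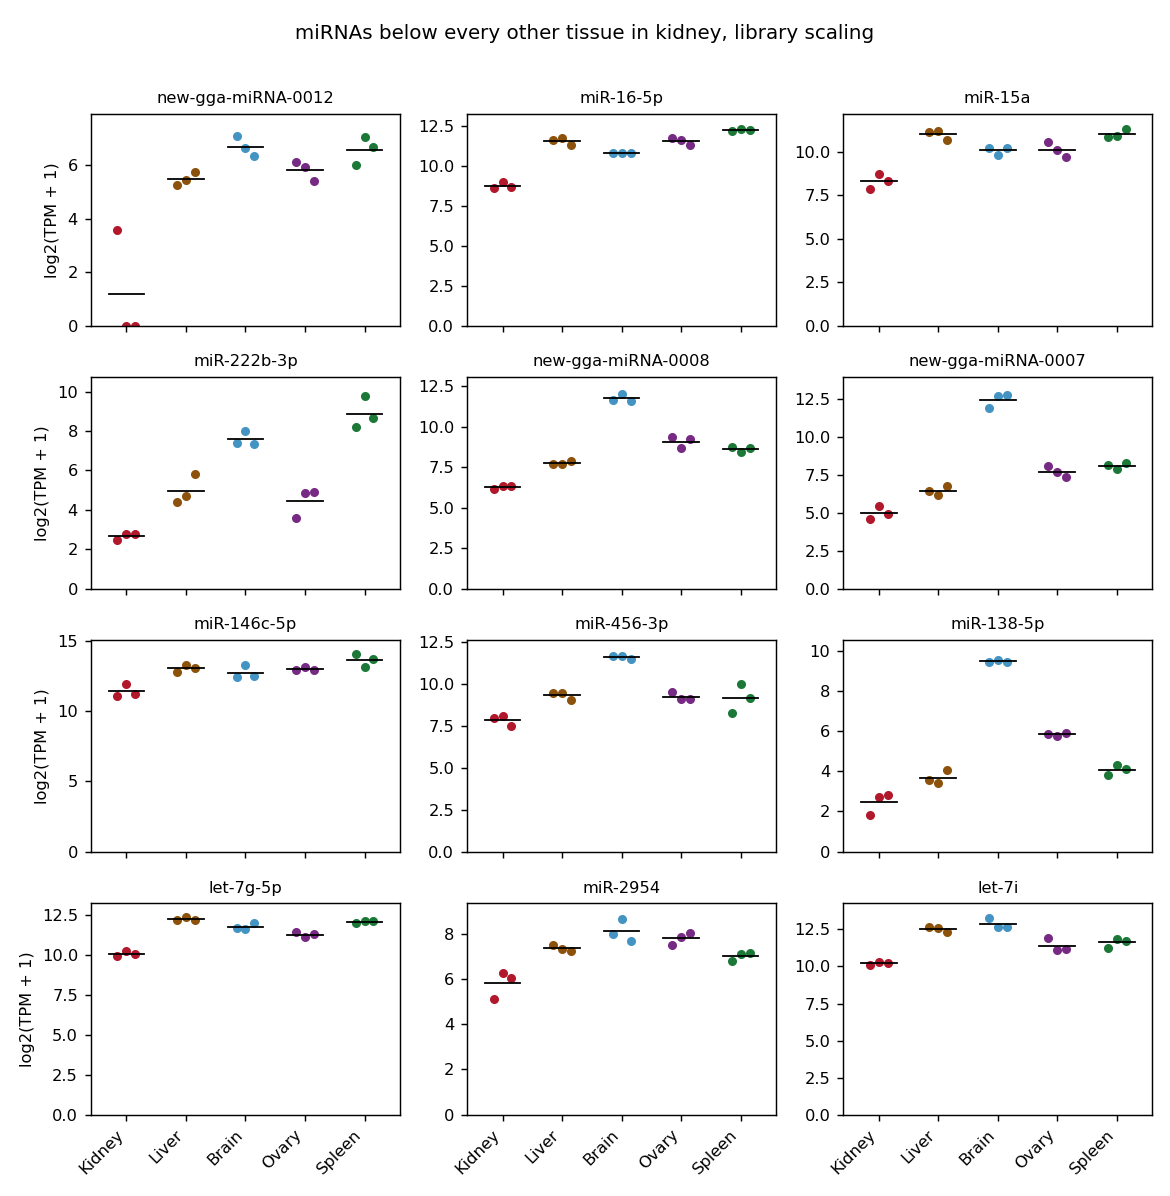
log2(TPM + 1) of 12 of the 22 miRNAs called below every other tissue, those with the largest nearest difference whose means reached 10 TPM in each of the other 4 tissues, per sample (points, 3 per tissue) with the mean (line). All 3 kidney points lie below all 12 others in each panel under the deposited scaling. Only miR-16-5p and new-gga-miRNA-0012 are called below every other tissue after centring.

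Several families of broadly expressed miRNAs were counted next. Of the 18 rows of the miR-17-92 cluster and its paralogue, which promote cell growth in mammals, 15 were called lower and none higher (24.6% and 3.44% of all), and in 11 the kidney samples lay below all 12 others (9.43% of all). Their median difference among rows from 10 TPM was -1.55, close to the -1.29 of all such miRNAs. The lower calls numbered 0 after centring and by DESeq2 and 1 by edgeR with TMM, beside 50, 48 and 51 of all miRNAs. miR-17-5p, for instance, had 165, 217 and 186 TPM in kidney and 329 to 1239 TPM elsewhere. Of the 14 let-7 rows 9 were called lower, and after centring only let-7c-5p was, with 109, 184 and 163 TPM in kidney, 149 to 279.9 TPM in liver and 681 to 4576 TPM in the other tissues. The reads of let-7a-5p and let-7j-5p, and of let-7a-3p and let-7k-3p, were listed with the same values in all samples and cannot be told apart. Of the 10 rows of the miR-130, miR-301 and miR-454 seed family 4 were called lower, of the 7 miR-29 rows 1, and of the 5 miR-181 rows and the 2 miR-126 rows none. The seed family had 0 lower calls under each of the 4 other scalings, and its median difference from 10 TPM was -1.31. The median differences of miR-29, miR-126 and miR-181 from 10 TPM, at -0.95, -0.75 and -0.31, lay above the -1.29 of all such miRNAs. After centring 1 miR-29 row and 1 miR-181 row were called higher, beside 55 of all 668 miRNAs.

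Markers of other cell types were given the same test, as the kidney holds blood, vessels and connective tissue. All 9 rows of immune cell miRNAs were called lower (24.6% of all). They were arms of miR-142, miR-146a, miR-146b and miR-146c, and miR-155, while miR-150 and miR-223 had no row among those tested. Their median difference was -1.67, beside -1.29 over all miRNAs from 10 TPM. The 9 rows summed to 4475 to 9479 TPM in kidney and 6995 to 144743 TPM in the other samples. After centring 3 of the 9 were lower, beside 50 of all 668 miRNAs. By edgeR with TMM and by DESeq2 2 of the 9 were lower, beside 51 and 48 of all. Against brain alone 3 of the 9 were called higher and 1 lower (5.39% and 29% of all). miR-142-5p, of blood cells, had 1686, 4590.0 and 3373 TPM in kidney, 668, 736 and 1083 TPM in brain and 70295, 121201 and 81972 TPM in spleen. Kidney thus lay above brain and far below spleen for it, with Kidney 1 the lowest of the kidney samples. Among 7 rows of stromal miRNAs 5 were called lower (24.6% of all), with miR-455-3p and miR-455-5p the 2 that were lower after centring. By edgeR with TMM and by DESeq2 1 of the 7 was lower, beside 51 and 48 of all miRNAs. Against brain alone 3 of the 7 were called higher and 1 lower (5.39% and 29% of all). The 2 rows of miR-144, of red blood cells, were not called, at 216 to 534 TPM summed in kidney and 105.9 to 1818 TPM in the other samples.

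Markers that define the other organs were lower in kidney than in those organs. The liver marker miR-122-5p had 26.3, 62.6 and 36.1 TPM in kidney and 6484, 6374 and 7494 TPM in liver, but it overlapped with brain, ovary and spleen, where samples ran over 3.95 to 99.9 TPM. Its other arm miR-122-3p had 3.43, 6.38 and 5.17 TPM in kidney and averaged at most 1.08 TPM in brain, ovary and spleen, and it was called higher than the mean of the 4 tissues under the 4 other scalings. The gonad marker miR-202-5p had at most 0.272 TPM in kidney and an average of 859 TPM in ovary. The neuronal miR-124a-3p had at most 1.18 TPM in kidney and an average of 2048 TPM in brain, and miR-9-5p had 10.8, 26.6 and 38.1 TPM in kidney and 45103 to 61218 TPM in brain. Among 29 neuronal rows, 20 were called lower than the mean of the 4 tissues and none higher (24.6% and 3.44% of all). After centring 10 were lower and 2 higher, beside 50 and 55 of all miRNAs. By edgeR with TMM 11 were lower and 2 higher, beside 51 and 56 of all, and by DESeq2 10 and 3, beside 48 and 53. Against liver, 5 were lower and 2 higher (19.8% and 4.04% of all). Of the 12 muscle rows tested 6 were called lower (24.6% of all), 2 after centring and by DESeq2 and 4 without Kidney 1, and miR-133a-3p had 120, 204 and 172 TPM in kidney against 134 to 3541 TPM in the others.

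**Figure D5:**
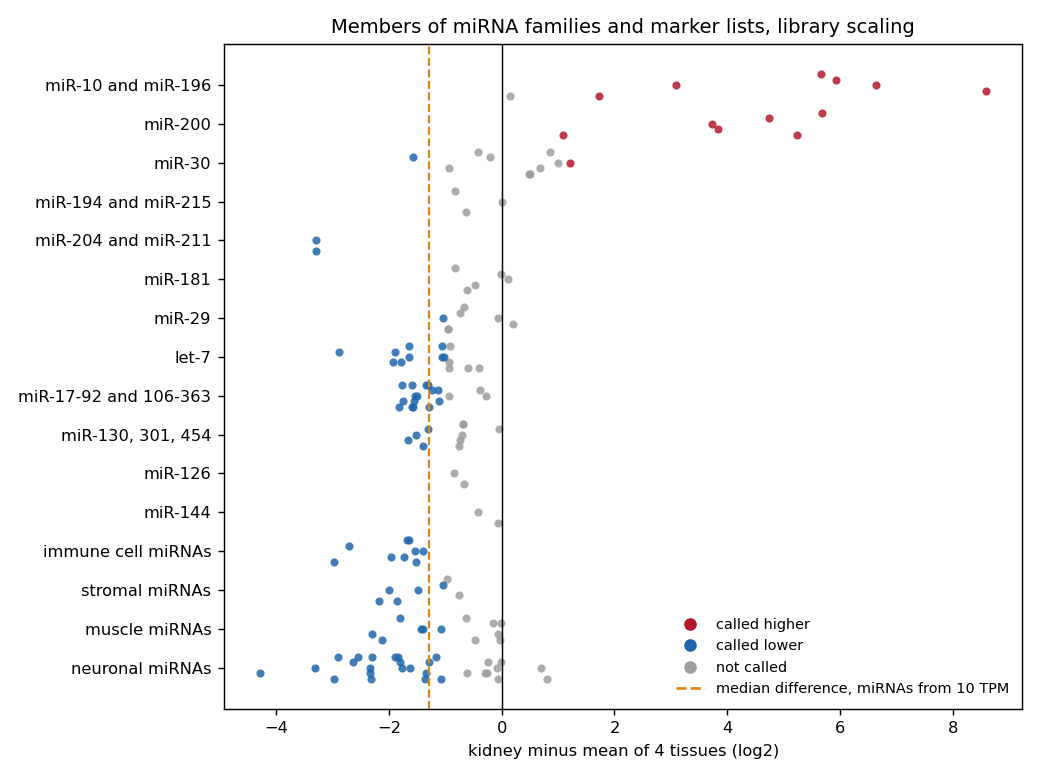
Differences of kidney from the mean of the 4 other tissues (x axis, log2) for the members of miRNA families and marker lists, 1 point for each miRNA under the deposited scaling. miR-10 with miR-196 and miR-200 lie to the right, with 12 of 13 rows called higher, and stay so under every scaling, while of the let-7 and miR-17-92 rows called lower, near the dashed line of the median difference of -1.29, only 1 is called after centring.

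Set against each tissue alone under the deposited scaling, with the same 3 kidney samples in all 4 comparisons, the calls leaned to lower values each time. Higher calls were 4.04% and lower calls 19.8% of the 668 miRNAs against liver, 5.39% and 29% against brain, 3.14% and 18.4% against ovary and 4.79% and 18.7% against spleen. With the kidney and liver samples alone, paired by number as a replicate block, 19 miRNAs were called higher and 69 lower than in liver, beside 26 and 108 in the same samples without the pairing. In this paired fit 8 of the 9 miRNAs above every tissue and 12 of the 22 below passed against liver. The miR-200 rows were called higher in 4 of 6 against liver, 6 of 6 against brain, 5 of 6 against ovary and 6 of 6 against spleen, and the miR-10 and miR-196 rows in 6, 6, 4 and 4 of 7. The miR-17-92 rows, with those of the paralogue, were called lower in 13 of 18 against liver, 8 against brain, 14 against ovary and 15 against spleen. Against the mean of the 4 tissues their lower calls numbered 0 or 1 under the 4 other scalings. Counts against each tissue alone under those scalings are not given here. Across the 668 miRNAs the mean kidney profile correlated with that of ovary at Pearson's r = 0.942, of liver at 0.936, of spleen at 0.928 and of brain at 0.842, as a description over miRNAs that share their libraries.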

How the data were processed

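Small RNA libraries of 15 Tibetan chicken samples were used, 3 each of kidney, liver, brain, ovary and spleen at 300 days. Per the submitters' processing notes, reads were trimmed with cutadapt and aligned with Bowtie. According to the methods, reads of other RNA classes were removed, known miRNAs were taken from miRBase and further ones predicted with miRDeep2. The genome build is not given in the sources used here. The authors deposited 1 value per miRNA and sample under the name TPM, which are RPM values: 100% of them in each sample were whole multiples of 1 read (tolerance 0.1 read), with no length correction. How the library total was defined is not given in the sources used here. The reads recovered in this way gave 3 reads, or 0.23 to 0.279 TPM, as the detection floor, which covers counting error only. The design assumed TPM, and the test on the log scale serves RPM as well.

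log2(TPM + 1) was fitted over the 5 tissues with limma 3.58.1 in R 4.3.3, with moderated variance and Benjamini-Hochberg adjustment over 668 miRNAs, and calls needed an adjusted p of at most 0.05 and a 2-fold difference. A miRNA was above or below every tissue where all 4 differences had 1 sign, the largest of the 4 p-values passed after adjustment and the smallest difference was 2-fold. Count tests on the recovered reads used edgeR 4.0.16 and DESeq2 1.42.0, and edgeR with TMM called 56 higher and 51 lower. Single values were compared by exact permutation tests. The scripts were tested on simulated data that held no shift in scale between tissues, so that test does not bear on the choice of scaling. Figures were drawn with matplotlib 3.10.9. Named miRNAs were up to 12 above every tissue (kidney mean from 10 TPM) and up to 12 below (mean from 10 TPM in each other tissue) by size of the nearest difference, their other arms, the 10 highest in kidney, and list members from 10 TPM. Same-numbered kidney and liver samples had r of 0.109 to 0.195 in 3 of 3 pairs, against -0.124 to -0.0193 in the 6 differently numbered ones. These r are of deviations from each tissue's own mean of 3 samples, so the 2 ranges are not independent. Differently numbered kidney and spleen samples ran from -0.0979 to 0.215, so r of this size do not show which samples belong together. A fit of kidney and liver paired by number was added after seeing the data. The members and lists were chosen with earlier results of these data known. The scaling without miR-10b-5p and the count of identical rows once were chosen after seeing the data. The table also held 1 column that was not used.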

Additional observations from a re-analysis of the deposited data

How the results depend on the processing

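The 23 higher and 164 lower calls against the mean of the 4 tissues numbered 55 and 50 after centring, 56 and 51 by edgeR with TMM, 53 and 48 by DESeq2, 44 and 84 with miR-10b-5p left out of the scaling, and 13 and 46 with the 12 other samples as 1 group. They numbered 28 and 141 with the listed miRNAs rescaled, and 32 and 151 by edgeR without TMM. With tissue means as units both limma counts were 0 after adjustment. The 9 above every tissue numbered 29, 15, 22 and 15 after centring, by edgeR with TMM, by DESeq2 and without miR-10b-5p, and the 22 below numbered 3, 0, 0 and 1, 8 with the listed miRNAs rescaled, 46 without liver and 41 without brain. Leaving out 1 sample at a time gave 21 to 26 higher, 148 to 171 lower, 7 to 10 above and 12 to 28 below, the last with 12 without Kidney 1 and 13 without Kidney 3. All these counts can include miRNAs outside the main calls. Centring also moves values of 0, so rows near the floor can gain a difference. miR-133c-5p, at 0 in kidney, had a nearest difference of 0.83 after centring. miR-1641 and miR-7456-3p, among the 29, averaged 1.65 and 0.795 TPM in kidney. From 10 TPM, 148.3 miRNAs were detected in kidney on average, against 325 above 0. By DESeq2 the difference from the mean turned positive, short of the threshold, for miR-148a-3p (0.0606), miR-499-5p (0.0638), miR-214 (0.138), let-7a-3p and let-7k-3p (0.184, and 0.0431 by edgeR with TMM), let-7f-5p (0.129), miR-19a-3p (0.0051) and miR-29a-5p (0.0684). The cause of these changes was not tested.

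With the replicate number as a replicate block the counts were 23, 163, 9 and 22. Same-numbered samples of 2 tissues correlated over 0.1 in 10 of 30 pairs, in all 3 of them only for kidney with liver, where the block on these 6 samples gave 19 higher and 69 lower calls against liver. The numbers were not taken to pair the other tissues, and whether they pair kidney with liver cannot be told from these correlations. With 3 kidney samples, and 1 of them apart, a miss of the threshold does not show equal levels, and values under 3 reads were not detectable at this depth.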

Other observations

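Beyond the named families, the 164 miRNAs called lower in kidney than the mean of the 4 tissues reached their highest mean in brain in 77, in spleen in 36, in liver in 26 and in ovary in 25. Of the 32 that were lower under all 4 other scalings, 19 were highest in brain, 7 in ovary, 5 in spleen and 1 in liver. The share of all 668 miRNAs that were highest in each tissue was not counted beside these. Brain had the most miRNAs above 0 (473 ± 28.1) and takes part in the mean, so these counts do not single it out. A further 19 miRNAs, not called under the deposited scaling, were called higher in kidney under all 4, among them miR-30b-5p, miR-30c-5p, miR-30d and miR-193b-3p.

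miR-460b-5p had 4.16, 2.21 and 6.54 TPM in kidney and 1111 ± 174 TPM in brain (SD, n = 3), while miR-460a-5p was above every other tissue in kidney. The predicted new-gga-miRNA-0006 was listed at 0, 20.95 and 15.8 TPM in kidney and at 73.3 to 12273 TPM in the other samples. Its difference from the mean of the 4 tissues, -5.73 ± 0.78 (SE), was called lower under the deposited and all 4 other scalings. Its nearest difference of -3.53 did not pass (adjusted p = 0.0569 by limma). It was called below every other tissue after centring, but not with miR-10b-5p left out, by edgeR with TMM or by DESeq2.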
